A study of Mus musculus with 8 samples.

Results

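The genes of the calcium/calmodulin-dependent protein kinases (CaM kinases) were examined in hippocampal neurons exposed to melanin-concentrating hormone (MCH). The 10 members, taken by name and matched by Ensembl identifier, were the CaMKII subunits *Camk2a*, *Camk2b*, *Camk2d* and *Camk2g*, the nuclear kinase *Camk4*, the CaMKI isoforms *Camk1*, *Camk1d* and *Camk1g*, and the upstream kinases *Camkk1* and *Camkk2*. They are 10 of the 45706 genes in the gene table and hold 82 of its 109617 transcripts. All 10 passed the filter on low counts.

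Neurons of wild-type C57/Bl6 mice were cultured at embryonic day 18 and collected at 12 to 14 days in vitro, 4 h after addition of 1 µM MCH peptide or of H2O as the vehicle. There were 4 wells per treatment, each with its own poly-A RNA-seq library. By the methods, 2 wells of each treatment came from each of 2 independent cultures, but the culture of each replicate is not given in the sources used here, and wells of the same culture share their cells. All wells received 5-fluoro-2-deoxyuridine, which limits the growth of glia, after 3 days. An Alzheimer's disease entry stands in the labels next to a wild-type genotype.

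CaM kinases carry calcium signals from channels and receptors to their targets. CaMKII forms large holoenzymes from alpha (*Camk2a*), beta (*Camk2b*), delta (*Camk2d*) and gamma (*Camk2g*) subunits and is among the most abundant proteins of the excitatory synapse, where it is needed for long-term potentiation. CaMKI and CaMKIV act singly in a cascade: once bound to calcium/calmodulin they are switched on fully by a CaM kinase kinase (*Camkk1* or *Camkk2*), and CaMKIV then acts in the nucleus on transcription factors such as CREB.

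Library totals ran from 26083936 to 31844861 estimated counts. Replicates 1 and 2 stood apart from replicates 3 and 4 in both treatments, along a first principal component that held 59.8% of the variance around the treatment means. In edgeR, 34.7% of the 14962 genes tested differed between these pairs of replicates, a split that was itself read from the counts. Markers of neurons summed to between 4670 and 5090 CPM (counts relative to the library total, adjusted by edgeR's TMM factors) in the 8 wells. Of the 7 markers of the oligodendrocyte lineage only *Sox10* was at 0 in all wells. Together the 7 summed to 57.3 to 68 CPM in replicates 1 and 2 and to 126 to 148 CPM in replicates 3 and 4. The 6 astrocyte markers summed to 343 to 463 CPM in replicates 1 and 2 and to 1510 to 1710 CPM in replicates 3 and 4, with all 6 markers higher in the latter without overlap. Between the treatments these sums overlapped (414 to 1580 CPM with vehicle, 343 to 1710 CPM with MCH), and none of the markers of any cell type passed edgeR's test for MCH. In bulk samples fewer cells of a type and less RNA per cell cannot be told apart.

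Levels of different genes were compared per length, in TPM (salmon's abundance, scaled for transcript length and depth) summed over the transcripts of each gene. *Camk2a* was the most abundant member at a mean of 584 TPM over the 8 wells, with 561 ± 56.4 TPM in vehicle wells and 607 ± 78 TPM in MCH wells (SD, n = 4 each). *Camk2b* followed at 366 ± 8.8 and 381 ± 6.56 TPM. The lowest *Camk2a* well (487 TPM) lay above the highest *Camk2b* well (389 TPM), so the order of these subunit genes was the same in every well. The remaining members formed a group far below, led by *Camk2g* (67.2 TPM) and *Camk1g* (65.3 TPM), whose ranges overlapped. *Camk1g* in turn did not overlap with *Camkk2*, the next gene, which ranged from 39.3 to 50.9 TPM against 57.7 to 71.4 TPM for *Camk1g*.

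From *Camkk2* (46.9 TPM) through *Camk1d* (46.6 TPM), *Camk1* (43.5 TPM), *Camk2d* (42.4 TPM) and *Camkk1* (38.2 TPM) to *Camk4* (31.5 TPM), every neighbouring pair overlapped. Genes further apart could still be told from each other: the highest *Camk4* well (35.6 TPM) lay below the lowest wells of *Camk1* (38.5 TPM), *Camkk2* (39.3 TPM) and *Camk1d* (41.2 TPM). In all, 6 of the 9 neighbouring pairs overlapped. Short transcripts weigh heavily on TPM: when transcripts under 500 bases were left out, *Camkk2* moved from rank 5 to rank 8, and with a minimum of 1000 bases, chosen after the data were seen, *Camk2d* moved to the last rank at 29.1 TPM and *Camk2a* stood at 487 TPM. The first 4 ranks were held by the same genes under both minimums.

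**Figure D1:**
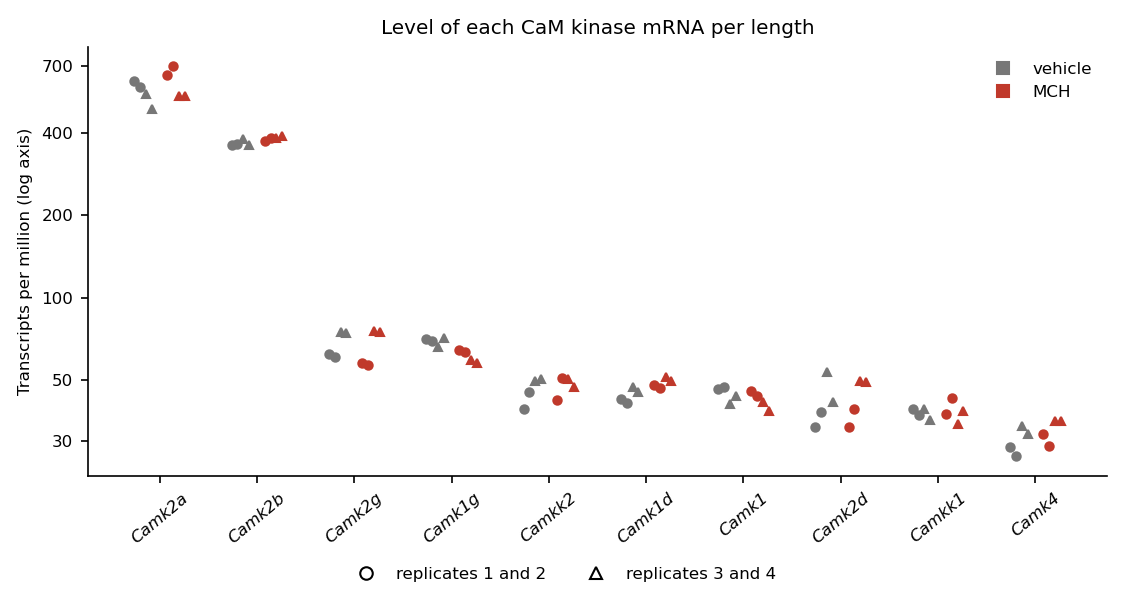
Level of each CaM kinase gene in the 8 wells, in TPM on a log axis, ordered by the mean, with vehicle wells in grey, MCH wells in red, circles for replicates 1 and 2 and triangles for replicates 3 and 4. *Camk2a* (487 to 697 TPM) and *Camk2b* (360 to 389 TPM) stand apart from the other 8 genes, and every neighbouring pair from *Camkk2* to *Camk4* overlaps.

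To ask whether MCH changed any CaM kinase mRNA, the members were read from edgeR's quasi-likelihood test over all 14962 genes. With treatment as the only term, 0 of the 10 members passed an adjusted *P* of 0.05, against 0.234% of all genes (0.207% lower and 0.0267% higher with MCH), and 2 members (*Camk1g* and *Camk1d*) had an unadjusted *P* under 0.05, which 8.5% of all genes had. The member with the largest difference was *Camk1g*. DESeq2 called 1 member, *Camk1g*, against 1.25% of genes called. A further fit took the replicate number as a block, an assumed pairing, and another took replicates 1 and 2 against 3 and 4 as blocks (the batch block). Each called *Camk1g* alone among the members, as lower with MCH. These fits called 3.98% and 4.46% of all genes, with 2.25% and 2.61% called lower. Of the 10 members, 5 had a fold change below 0, and their median log2 fold change was 0.0021 (all genes: 51% below 0, median −0.0027).

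*Camk1g* encodes CaMKI gamma, a membrane-anchored isoform enriched in brain and linked to dendrite growth. It lies on the minus strand of chromosome 1 (chr1:193346346-193370298, GRCm38). Its level was 91.2, 89.3, 83.8 and 87.4 CPM in vehicle replicates 1 to 4, and 79.2, 80.2, 72.5 and 71.4 CPM in the corresponding MCH wells. Every MCH well lay below every vehicle well, as was true of 2.96% of all genes (6.03% did not overlap in either direction). The means were 87.9 ± 3.15 CPM in vehicle wells and 75.8 ± 4.52 CPM in MCH wells (SD, n = 4).

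The log2 fold change of *Camk1g* was −0.213 ± 0.0495 (SE), a change of −13.7% with a 95% interval from −20.1% to −6.83%, and its adjusted *P* was 0.184 in edgeR with treatment alone. The difference did not pass in that fit, and leaving out single wells gave log2 fold changes from −0.236 to −0.178 with adjusted *P* from 0.198 to 0.571. With the replicate block the value was −0.214 ± 0.0357 with an adjusted *P* of 0.00166 in edgeR, and with the batch block −0.214 ± 0.0333 with an adjusted *P* of 0.000596. DESeq2 with treatment alone gave −0.212 with an adjusted *P* of 0.0373. The exact permutation test of log2 CPM gave *P* = 0.0286 (two-sided), the smallest value that 70 assignments of 8 wells allow. Any gene without overlap between the treatments gets this value. Within replicates 1 and 2 the difference was −0.178, and within replicates 3 and 4 it was −0.25. Both signs follow from the lack of overlap and add nothing to it. Leaving out each well from the batch block fit, an alternative added after the data were seen, kept *Camk1g* under the threshold in 8 of 8 fits, with adjusted *P* from 0.00139 to 0.00892 in edgeR.

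Almost all of the *Camk1g* signal came from *Camk1g-201*, the transcript of 11 coding exons that encodes 477 residues and held 94.7% of the gene's TPM. It was supported by 2008 to 2438 estimated reads per well. On its own, among 33527 transcripts, it had a log2 fold change of −0.217 ± 0.0508 with an adjusted *P* of 0.69 in edgeR.

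The other CaMKI isoforms did not pass the test in any of the 3 edgeR fits. *Camk1d*, which encodes CaMKI delta, stood at 164, 162, 176 and 168 CPM in the vehicle wells and at 176, 174, 181 and 183 CPM in the MCH wells. The treatments did not overlap within replicates 1 and 2 or within replicates 3 and 4, although they did over all 8 wells. Each pair of replicates holds only 2 wells per treatment. The share of all genes separated in this way was not counted, here or for the members below. The log2 fold change was 0.0918 ± 0.038, a change of 6.57% with a 95% interval from 0.449% to 13.1%, at an adjusted *P* of 0.553 in edgeR and an exact permutation *P* of 0.0857. Within replicates 1 and 2 the log2 difference was 0.105 and within replicates 3 and 4 it was 0.0794, and the adjusted *P* in edgeR was 0.103 with the replicate block and 0.0697 with the batch block. *Camk1*, the alpha isoform, was at 34.9, 36.1, 31.3 and 33.3 CPM with vehicle and at 34.3, 32.7, 30.9 and 29.0 CPM with MCH. Here the MCH wells lay below the vehicle wells within each pair of replicates, but the treatments overlapped over all 8 wells. The log2 fold change was −0.0948 ± 0.0648 (95% interval of the change −15.3% to 3.58%), at −0.082 in the first pair of replicates and −0.109 in the second. The adjusted *P* in edgeR was 0.771 with treatment alone, 0.338 with the replicate block and 0.287 with the batch block. The difference between isoforms in their response was not itself tested.

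*Camk4* encodes CaMKIV, found mainly in neuronal nuclei. It measured 205, 191, 241 and 227 CPM in vehicle wells and 225, 203, 250 and 250 CPM in MCH wells. The spread between replicates 1 and 2 and replicates 3 and 4 was wider than the difference between treatments. The means were 216 ± 22.3 and 232 ± 22.8 CPM, and the difference did not pass the test (log2 fold change 0.102 ± 0.0887, adjusted *P* = 0.849 in edgeR, 95% interval of the change −6.58% to 23.4%). Within replicates 1 and 2 the log2 difference was 0.109 and within replicates 3 and 4 it was 0.0966. With the replicate block the adjusted *P* was 0.0606 and with the batch block 0.0973 in edgeR, both above the threshold.

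The kinases that activate CaMKI and CaMKIV showed no detectable difference. *Camkk1*, which encodes the alpha CaM kinase kinase, was at 76.1, 73.2, 66.7 and 68.6 CPM with vehicle and at 71.5, 79.4, 66.0 and 72.7 CPM with MCH. *Camkk2*, the beta form that also activates AMP-activated protein kinase, was at 90.5, 89.6, 105 and 95.8 CPM with vehicle and at 81.7, 92.0, 102 and 101 CPM with MCH. For both genes the treatments overlapped throughout. The 95% intervals of the change ran from −7.67% to 12.2% for *Camkk1* and from −12.3% to 11.8% for *Camkk2*.

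*Camk2a*, the alpha subunit of forebrain excitatory neurons, stood at 1410, 1370, 1250 and 1170 CPM in the vehicle wells and at 1460, 1550, 1250 and 1220 CPM in the MCH wells. Replicates 1 and 2 were high and replicates 3 and 4 low under both treatments. The log2 fold change with MCH was 0.0777 ± 0.0893 (adjusted *P* = 0.918 in edgeR), and the 95% interval of the change ran from −8.27% to 21.4%. *Camk2b*, whose beta subunit binds actin filaments, was nearly even across the wells, with 736, 734, 770 and 745 CPM in vehicle wells and 738, 760, 764 and 762 CPM in MCH wells. Its 95% interval, from −3.6% to 6.45%, was the narrowest of the members. For *Camk2a* and *Camk2b* the MCH wells lay above the vehicle wells within replicates 1 and 2, while the treatments overlapped within replicates 3 and 4.

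The delta and gamma subunits are also made outside neurons. *Camk2d* was at 59.7, 62.3, 71.9 and 70.3 CPM with vehicle and at 55.5, 61.9, 72.8 and 71.1 CPM with MCH. *Camk2g* was at 127, 125, 151 and 151 CPM with vehicle and at 116, 115, 152 and 150 CPM with MCH. In both genes replicates 3 and 4 were higher than replicates 1 and 2 in each treatment, and the treatments overlapped over all wells. Within replicates 1 and 2 the MCH wells of *Camk2g* lay below the vehicle wells. Its log2 difference was −0.127 there and −0.000668 within replicates 3 and 4. The 95% intervals of the change with MCH ran from −14.9% to 15% for *Camk2d* and from −20% to 15.6% for *Camk2g*.

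**Figure D2:**
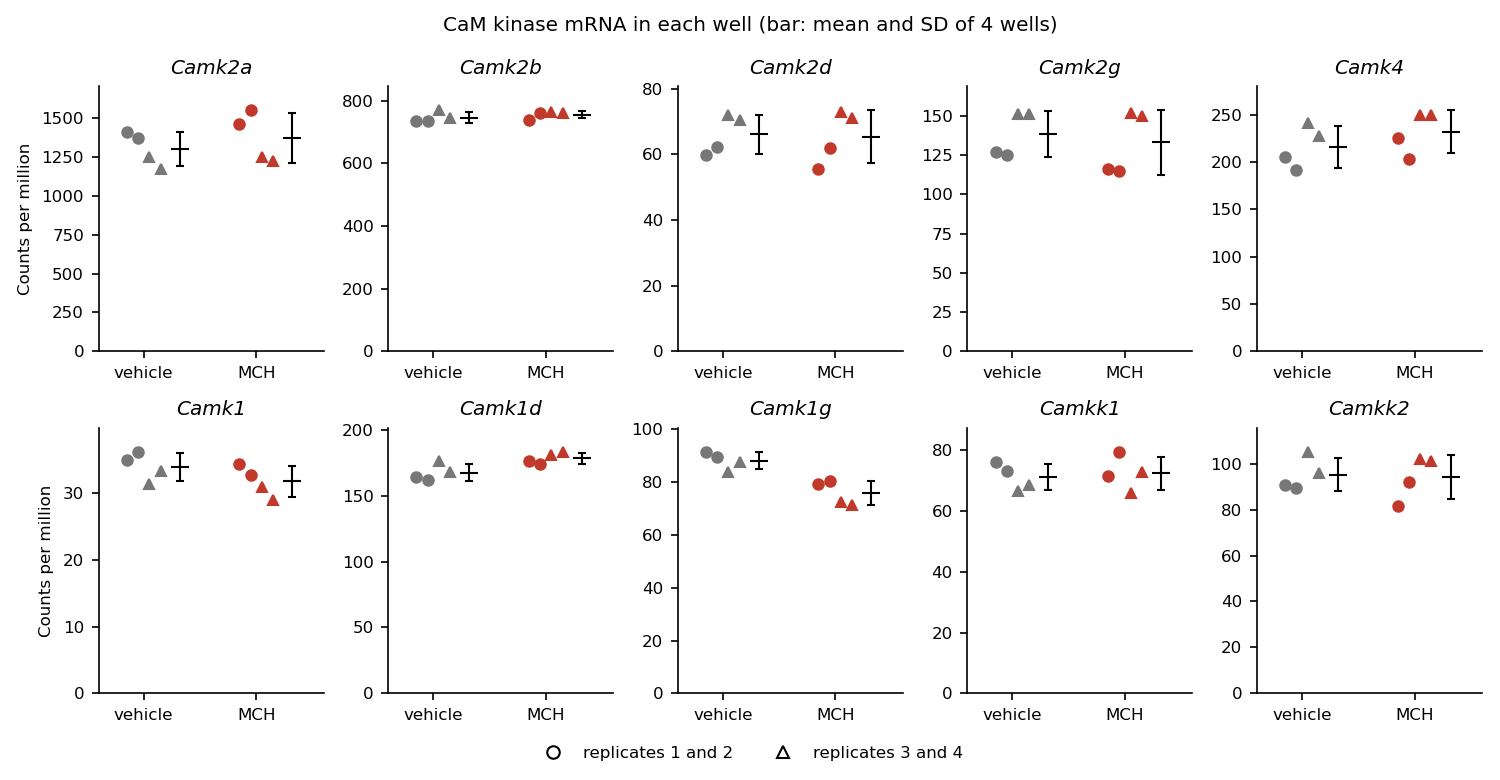
Level of each CaM kinase gene in every well, in CPM on axes that start at 0, with circles for replicates 1 and 2, triangles for replicates 3 and 4, and a bar for the mean and SD of 4 wells. *Camk1g* is the panel in which all MCH wells (71.4 to 80.2 CPM) lie below all vehicle wells (83.8 to 91.2 CPM).

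The intervals of the 10 members narrowed when either block was added, while the fold changes themselves moved little. With either block, 4 members had an unadjusted *P* under 0.05 (17.6% of all genes had one with the replicate block). Of these only *Camk1g* passed after adjustment over all genes. In the batch block fit without vehicle replicate 3, *Camk2a* (adjusted *P* = 0.00929 in edgeR), *Camk1d* (0.0209) and *Camk4* (0.046) passed as well, all of them higher with MCH, and without MCH replicate 2 *Camk4* passed (0.0476). These calls rested on the omission of a single well. The first of these fits called 1046 of 15116 genes and the second 370 of 15172, against 4.46% with all wells. No member passed edgeR's test for an effect of MCH that differed between the pairs of replicates (interaction term, lowest adjusted *P* = 0.643, *Camk2g*). This term called 4 of all 14962 genes. Each pair of replicates held only 2 wells per treatment, so equal effects in the pairs were not shown.

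**Figure D3:**
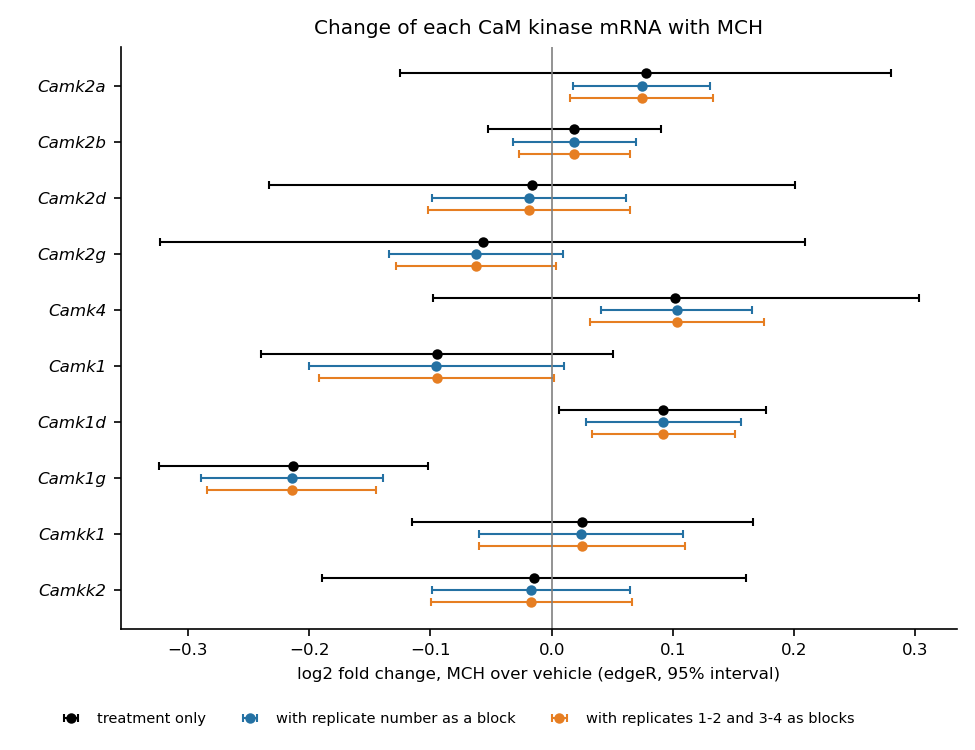
Log2 fold change of each CaM kinase gene with MCH over vehicle from edgeR, with 95% intervals, for the fit with treatment alone (black), with the replicate number as a block (blue) and with replicates 1 and 2 against 3 and 4 as blocks (orange). *Camk1g* lies at −0.213, −0.214 and −0.214, and its intervals stay below 0 in all 3 fits. The intervals of *Camk1d* stay above 0 in all 3 fits, and those of *Camk2a* and *Camk4* do so with either block.

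The subunits of CaMKII assemble into shared holoenzymes, and the proportion of beta to alpha is known to vary with activity in cultured neurons. Of the TPM summed over the 4 subunit genes, *Camk2a* made up 54.0 ± 3.27% in vehicle wells and 55.2 ± 4.23% in MCH wells (SD, n = 4). *Camk2b* made up 35.3 ± 1.69% and 34.8 ± 2.17%. *Camk2g* and *Camk2d* contributed the remainder, with 6.59 ± 0.959% and 4.04 ± 0.824% in vehicle wells. The alpha and beta genes thus accounted for most of the CaMKII mRNA in all wells.

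The TPM of *Camk2b* per TPM of *Camk2a* was 0.583, 0.617, 0.686 and 0.742 in the vehicle wells and 0.576, 0.546, 0.704 and 0.718 in the MCH wells. Replicates 1 and 2 were low and replicates 3 and 4 high in both treatments, and the treatments overlapped. On the log2 scale the means were −0.612 ± 0.155 and −0.663 ± 0.2, a difference of −0.0512 (two-sided exact permutation test, *P* = 0.629). The difference was −0.0974 within replicates 1 and 2 and −0.00509 within replicates 3 and 4. Over the 4 same-number pairs the sign-flip exact permutation test gave *P* = 0.375, where 4 pairs cannot reach 0.05. The proportion itself depends on short transcripts. With a minimum of 1000 bases, chosen after the data were seen, the log2 means were −0.374 with vehicle and −0.437 with MCH.

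CaMKII transcripts also differ by cassette exons in the variable segment between the kinase and association domains. A cassette of 33 bases in this segment carries a nuclear localization signal, and it is present in annotated transcripts of *Camk2a*, *Camk2d* and *Camk2g*. The coding exons of *Camk2d* (chr3:126802937-126802969, plus strand) and *Camk2g* (chr14:20747819-20747851, minus strand) are shown because the inclusion values below turn on them. They are given 5′ to 3′ from GENCODE vM21 on GRCm38, with capitals at the 7 bases that differ between them.
*Camk2d* cassette: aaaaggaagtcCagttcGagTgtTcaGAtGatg
*Camk2g* cassette: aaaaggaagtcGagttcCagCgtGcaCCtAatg
The exons share 26 of 33 bases. The cassette of *Camk2a* shares 28 bases with each of them. A 33-base exon annotated in *Camk2b* shares only 9 bases with the *Camk2g* cassette at matched positions and was not counted as the same exon.

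Inclusion was taken as the share of the TPM of full-length transcripts, those with 10 or more coding exons, that came from a transcript with the cassette. The shares rest on salmon's estimates per transcript. Ambiguity in the assignment of reads to transcripts was not modelled, here or in the tests of transcripts and their usage. In *Camk2g* the cassette was the predominant form: *Camk2g-201* (529 residues) held 64.0, 59.7, 60.3 and 68.5% in vehicle wells and 73.2, 63.5, 70.3 and 67.2% in MCH wells. The means were 63.1 ± 4.05% and 68.6 ± 4.18% (SD, n = 4), and the treatments overlapped. In *Camk2a* the cassette was a minor form. *Camk2a-201* (489 residues) held 4.92, 4.35, 6.33 and 4.95% in vehicle wells and 6.29, 7.82, 6.5 and 6.32% in MCH wells, with means of 5.14 ± 0.839% and 6.73 ± 0.732%. The MCH wells were the higher ones, but the highest vehicle well exceeded the lowest MCH well. In *Camk2d* the cassette form was at 0 in 5 wells, at 1.19% in vehicle replicate 4, at 1.06% in MCH replicate 3 and at 12.7% in MCH replicate 4. It did not reach the filter on low counts and was not tested.

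**Figure D4:**
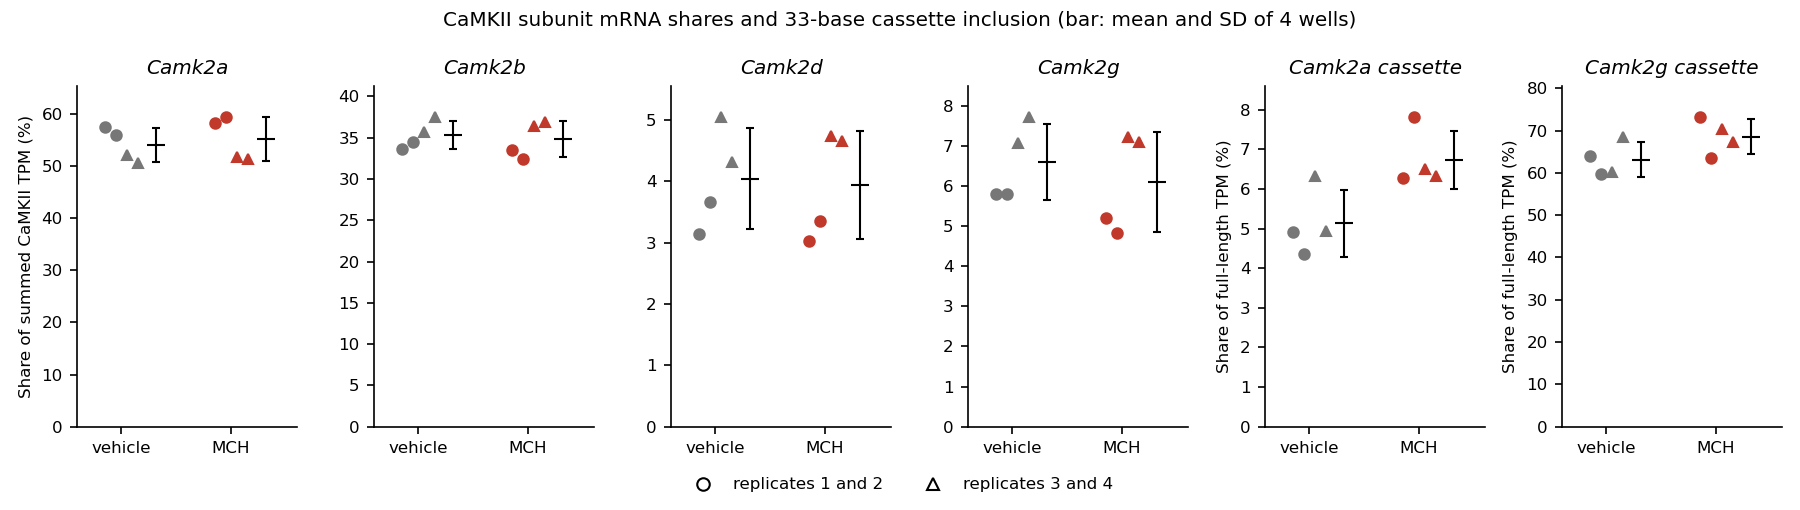
Shares of the 4 CaMKII subunit genes in their summed TPM (first 4 panels) and inclusion of the 33-base cassette in the full-length transcripts of *Camk2a* and *Camk2g* (last 2 panels), in percent per well, with circles for replicates 1 and 2, triangles for replicates 3 and 4, and a bar for the mean and SD of 4 wells. The subunit shares of *Camk2a* separate the pairs of replicates (50.5 to 52.1% against 56.0 to 59.4%) rather than the treatments, and the *Camk2g* cassette makes up 59.7 to 73.2% in all wells.

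Across all transcripts, 0 of 33527 passed in edgeR with treatment alone (1476 had an unadjusted *P* under 0.05), so 0 of the 46 transcripts of the members that were tested passed, 3 of them with an unadjusted *P* under 0.05. These 3 were *Camk1g-201*, *Camk1d-201* and *Camk2a-201*. *Camk2a-201* had means of 23.9 ± 3.82 TPM with vehicle and 34.1 ± 7.25 TPM with MCH, a log2 fold change of 0.489 ± 0.165 whose adjusted *P* was 1 in edgeR. In the test of transcript usage within genes (edgeR's diffSpliceDGE), 0 of the 9 members with more than a single transcript tested passed, against 0.134% of 7467 genes, and 0 had an unadjusted *P* under 0.05. With the batch block 0.0179% of transcripts and 0.147% of genes in the usage test were called, and with the replicate block 0.0804% of genes, and in both fits 0 member transcripts and 0 members were among them.

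A single transcript dominated most members. *Camk4-201* held 100% of its gene's TPM, *Camk1d-201* held 93.8% and *Camk1-201* held 91%. *Camk2a-203*, which encodes the standard alpha subunit of 478 residues, held 78.1%, and *Camk2a-207*, a fragment of 530 bases, held 16.4% on 283.3 to 562 estimated reads per well. *Camk2b* was spread over *Camk2b-209* (65.8%) and *Camk2b-210* (19.8%), both annotated with 542 residues. *Camk2d* was spread most widely, with *Camk2d-206* at 44.3% and *Camk2d-217* at 20.3%. The latter is a transcript of 618 bases annotated as a retained intron without coding exons, on 35.25 to 92.16 estimated reads per well. *Camk2g-202*, which lacks the cassette, held 26%. *Camkk1-201* held 70.8% and *Camkk1-203*, also annotated as a retained intron without coding exons, held 26.8%. *Camkk2-201* held 64.1%, and *Camkk2-206* held 12.5% on at most 31.15 estimated reads. None of these named transcripts had an adjusted *P* under 0.05 in edgeR.

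More members differed between the pairs of replicates than between the treatments. In edgeR with treatment in the model, 8 of the 10 members differed between replicates 3 and 4 and replicates 1 and 2 (all genes: 34.7%). Because the split was read from the same counts, this is a description. *Camk2g* was higher in replicates 3 and 4 by 0.324 ± 0.0316 on the log2 scale (SE), *Camk2d* by 0.259 ± 0.0398, *Camk4* by 0.234 ± 0.0341 and *Camkk2* by 0.191 ± 0.0396. *Camk2a* was lower there, at −0.241 ± 0.0278, as were *Camk1* (−0.148), *Camkk1* (−0.13) and *Camk1g* (−0.111). *Camk2b* (0.0351) and *Camk1d* (0.0681) did not pass.

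These differences came with the higher sums of astrocyte and oligodendrocyte lineage markers in replicates 3 and 4 given above. The sum of the 5 excitatory neuron markers was lower there, at 1440 to 1520 CPM against 1750 to 1970 CPM in replicates 1 and 2, although 1 of the 5 was higher. Sums of inhibitory neuron markers (2560 to 2770 against 2840 to 3090 CPM) and of neuron markers (4670 to 4770 against 4860 to 5090 CPM) were lower there as well. Fibroblast or vessel markers summed to 50.1 to 53.9 CPM against 16.5 to 21.8 CPM. The part of cell composition in the differences of the members was not tested.

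**Figure D5:**
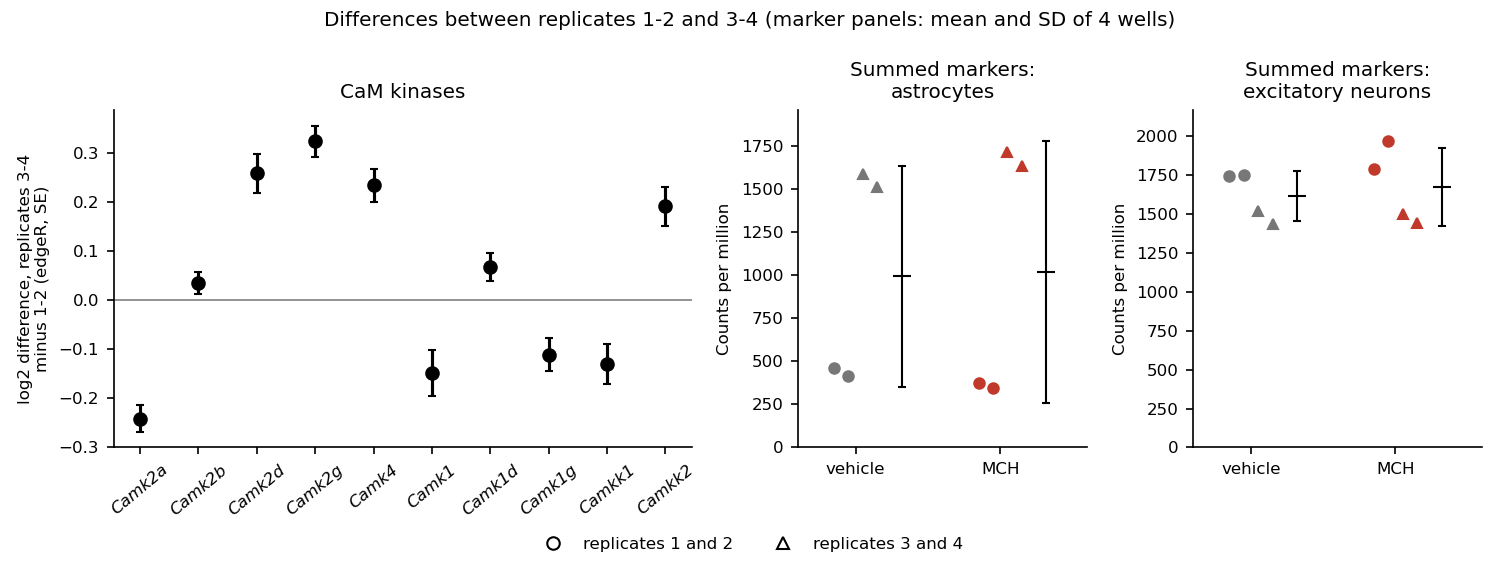
Left, log2 difference of each CaM kinase gene between replicates 3 and 4 and replicates 1 and 2 from edgeR, with SE. Middle and right, summed CPM of the 6 astrocyte and 5 excitatory neuron markers per well, with circles for replicates 1 and 2, triangles for replicates 3 and 4, and a bar for the mean and SD of 4 wells. *Camk2a* differs by −0.241 and *Camk2g* by 0.324, and astrocyte markers reach 1510 to 1710 CPM in replicates 3 and 4 under both treatments.

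The genes whose log2 CPM ran most closely with *Camk2a* over the 8 wells were *Ptk2b* (Pearson's r = 0.9899), *Camta2* (0.9883), *Smarcc2* (0.9873), *Reps2* (0.9871) and *Neurod6* (0.9868). Those closest to *Camk4* were *Cacna1i* (0.9868), *Sorbs2* (0.9844), *Nfkbiz* (0.9836), *Dek* (0.9773) and *Ccdc170* (0.977). The 8 wells share the split between the pairs of replicates described above, and the values are given as a description without a test.

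Genes around the CaM kinases were then read from lists of 67 genes, 66 of which were tested. In edgeR with treatment alone 0 of them passed (all genes: 0.234%) and 10 had an unadjusted *P* under 0.05 (all genes: 8.5%). DESeq2 called 2 (*Hdac5* and *Ppp1cc*) and limma voom 0. The median log2 fold change over the lists was −0.012. *Calm2* and *Calm3* encode calmodulin, the calcium sensor of every member. *Calm2* averaged 1050 ± 13.6 CPM in vehicle wells and 1030 ± 42.1 CPM in MCH wells, with a log2 fold change of −0.0317. *Calm3* averaged 1720 ± 58.7 and 1710 ± 42.5 CPM (−0.0128). The 95% intervals of the change ran from −7.64% to 3.62% for *Calm2* and from −6.38% to 4.94% for *Calm3*.

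The endogenous CaMKII inhibitors were *Camk2n1*, at 167 ± 29.4 CPM in vehicle wells and 165 ± 38.7 CPM in MCH wells, and *Camk2n2*, at 113 ± 4.85 and 110 ± 8.4 CPM. *Camk2n1* varied between the pairs of replicates, with 131 to 145 CPM in replicates 1 and 2 and 188 to 200 CPM in replicates 3 and 4. Its 95% interval for MCH was therefore wide, from −27% to 33.8%, and that of *Camk2n2* ran from −10.7% to 6.93%. Of the 11 other kinases and pseudokinases listed beside the CaM kinases, 10 were tested and 0 passed in any of the 3 edgeR fits. All 6 calmodulin-sequestering proteins and all 19 synaptic anchors and substrates of CaMKII were tested, and 0 of them passed in these fits.

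With a block, 2 genes of the lists were lower and 1 was higher with MCH at an adjusted *P* under 0.05 (batch block, all genes: 2.61% lower and 1.85% higher). *Hdac5* encodes a class IIa histone deacetylase that CaM kinases phosphorylate, which moves it out of the nucleus. It stood at 261, 268, 237 and 246 CPM in vehicle wells and at 232, 219, 212 and 201 CPM in MCH wells, with every MCH well below every vehicle well. Its log2 fold change was −0.226 ± 0.0548, with an adjusted *P* of 0.216 in edgeR with treatment alone, 0.000339 with the replicate block and 7.5e-05 with the batch block.

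*Hdac4*, a close relative of *Hdac5*, was at 103, 97.3, 98.8 and 101 CPM with vehicle and at 129, 123, 105 and 104 CPM with MCH. Here every MCH well lay above every vehicle well, with most of the difference in replicates 1 and 2 (0.336 on the log2 scale, against 0.0701 in replicates 3 and 4). Its adjusted *P* was 0.436 in edgeR with treatment alone, 0.0565 with the replicate block and 0.0269 with the batch block. Without single wells the batch block gave 0.0346 to 0.124, and it was above the threshold without vehicle replicate 1 (0.118), vehicle replicate 2 (0.0827) or MCH replicate 2 (0.124).

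*Ppp1cc* encodes a catalytic subunit of protein phosphatase 1, which removes phosphate from CaMKII. It was at 201, 200, 188 and 194 CPM with vehicle and at 179, 175, 180 and 170 CPM with MCH, again without overlap. The log2 fold change was −0.155 ± 0.0357, with an adjusted *P* of 0.182 in edgeR with treatment alone, 0.00849 with the replicate block and 0.00348 with the batch block. *Hdac5* and *Ppp1cc* stayed under the threshold in the batch block without any single well, with highest adjusted *P* of 0.00242 and 0.0298 in edgeR.

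In total, 4 genes of the lists were higher and 4 lower with MCH without overlap between treatments, where 3.07% and 2.96% of all genes were. Beside *Hdac4*, the higher ones were *Grin2b* (log2 fold change 0.35), an NMDA receptor subunit that anchors CaMKII, *Crebbp* (0.135), the coactivator of CREB, and *Prkaa1* (0.13), a catalytic subunit of AMP-activated protein kinase. Beside *Hdac5* and *Ppp1cc*, the lower ones were *Rcan1* (−0.099), a regulator of calcineurin, and *Rem2* (−0.157), a small GTPase that binds calcium channels. The difference of *Grin2b* lay mainly in MCH replicate 1, at 797 CPM against 542 to 598 CPM in the other MCH wells: it was 0.618 within replicates 1 and 2 and 0.055 within replicates 3 and 4, and 0.209 over all wells without MCH replicate 1. *Crebbp* likewise went to 0.0901 without that well, with 0.201 and 0.0652 within the pairs of replicates. *Rem2* was uneven in the other direction, with −0.0596 and −0.25. These 5 genes passed in none of the 3 edgeR fits and were chosen after their values were seen. *Camk1g* was the only member without overlap.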

How the data were processed

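Bulk RNA-seq of 4 vehicle-treated and 4 MCH-treated wells was analysed, grouped by the treatment in the labels. Salmon, run by the authors inside nf-core/rnaseq with GRCm38 as the reference, gave the deposited estimated counts per gene, which are not scaled and of which 9.13% were not whole. The deposited transcript tables hold estimated counts, TPM and effective lengths for 109617 transcripts. Identifiers were matched to GENCODE vM21, which named 45143 of 45706 genes and may not be the annotation used by the authors.

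Estimated counts were rounded and tested in R 4.3.3 with edgeR 4.0.16 (TMM factors, filterByExpr with a count minimum of 10 and a total minimum of 15, robust quasi-likelihood F test, treatment only), with Benjamini-Hochberg adjustment over all features tested and a threshold of 0.05. Transcripts (33527) and transcript usage (7467 genes) were tested likewise. TPM were summed per gene for levels and ratios. Permutation tests were two-sided, exact and unadjusted. Scripts for the fits were tested on simulated data. Alternatives were RLE size factors, no filter on low counts, DESeq2 1.42.0, limma 3.58.1 with voom, a length offset, both blocks and leaving out each well.

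Same-number wells of the treatments correlated at 0.445 to 0.545 in their deviations from the treatment means. Other wells within replicates 1 and 2 or 3 and 4 correlated at 0.475 to 0.521, and wells across these pairs at −0.548 to −0.438. These values separate replicates 1 and 2 from 3 and 4 but do not single out same-number wells. The pairing by number, used in the replicate block and the same-number pairs, is therefore an assumption. The blocks reuse the same counts.

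The text gives all members in every well, member transcripts with at least 10% of their gene's TPM, list genes that passed in any of the 3 edgeR fits, *Calm2*, *Calm3* and the CaMKII inhibitor genes (1 further gene of the lists is not reported here), and the 5 genes closest to *Camk2a* and *Camk4*. The cassette-bearing transcripts of *Camk2a* and *Camk2d*, outside this rule, were picked once their values were known. The members and lists were chosen with earlier results of these data known. Replicates are wells, and *P* values measure the spread between wells.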

Additional observations from a re-analysis of the deposited data

Results flagged for a closer look

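Wells far from the other 3 of their treatment were sought by Dixon's test in 28 groups of 4 wells, of which chance marks about 1 in 20, and 4 were found. That rate assumes wells of a common spread, whereas the pairs of replicates stood apart, so the 4 cannot be set against it. *Camk2b* was lowest in MCH replicate 1, at 738 CPM against 760 to 764 CPM in the other MCH wells, which is within the range of the vehicle wells. The cassette share of full-length *Camk2a* TPM was highest in MCH replicate 2, at 7.82% against 6.29 to 6.5% in the other MCH wells. The cassette share of *Camk2d* was highest in replicate 4 of both treatments, at 1.19% with vehicle, where the other vehicle wells were at 0, and at 12.7% with MCH, where the next well was at 1.06%. With the other vehicle wells at 0, any value above 0 would have been marked. The transcript behind the *Camk2d* share had between 0 and 174.6 estimated reads per well.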

How the results depend on the processing

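With treatment alone edgeR called 35 genes, and this count became 157 with DESeq2, 7 with the length offset, 596 with the replicate block, 668 with the batch block and 4 to 29 without single wells. The count of members called, 0 with treatment alone, was 1 (*Camk1g*) with DESeq2, the replicate block and the batch block, and 0 under the other alternatives. Without single wells the batch block called 273 to 1046 genes and 1 to 4 members, the most without vehicle replicate 3. Transcripts called went from 0 to 6 with the batch block and 0 to 1 without single wells, and genes with a change in usage from 10 to 31 without the filter, 6 with the replicate block and 25 to 42 without single wells. The log2 ratio of *Camk2b* to *Camk2a* differed by −0.113 to 0.0185 without single wells, and turned positive without vehicle replicate 4 (0.00957) or MCH replicate 2 (0.0185).

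Among the fold changes of single members, 14 of 170 alternatives reversed a direction, all in 4 genes whose difference was small. *Camk2d* turned to 0.025 with the length offset and 0.0173 within replicates 3 and 4, and *Camkk2* to 0.0302 and 0.0207. Without single wells, *Camk2d* ranged from −0.0651 to 0.0583, *Camk2g* from −0.121 to 0.013, *Camkk2* from −0.0461 to 0.0511 and *Camkk1* from −0.0169 to 0.0744. The replicate block changed no other call among the members. The cause of these shifts was not tested. Depth allowed 3 counts as a floor, and all members lay far above it.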
